A study of Bos taurus with 9 samples.

Results

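Bovine embryos made by somatic cell nuclear transfer (SCNT) were compared, at the 2-cell stage, with mature oocytes at metaphase of the second meiotic division (MII), 6 libraries out of the 9 in the series. The members are the 3 SCNT libraries and the 3 MII libraries, chosen by their labels alone. All are Holstein (Bos taurus). An SCNT library holds a pool of 6 embryos and an MII library a pool of 3, per the series' design text, so the stage, the nuclear transfer and the pool size changed together and cannot be told apart. One label field calls the MII samples wild embryos, while their stage field says oocyte. The labels give no genotype, treatment, culture time, animal age or somatic donor cell, and do not name the animals or cultures behind each pool, so a p-value here speaks of library-to-library spread, which may be partly technical. Embryos from in vitro fertilisation (IVF) at the same stage (3 libraries, pools of 6) are given beside some results.

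An MII oocyte carries a store of RNA made while it grew in the ovary and transcribes little or nothing itself. In SCNT the oocyte's own chromosomes are removed and a somatic nucleus is put in, and the reconstructed egg is activated without sperm. The first cleavages of a cow embryo run mainly on the stored RNA, part of which is degraded or has its poly(A) tail altered, and the main wave of the embryo's own transcription comes some divisions later. A comparison of the oocyte with the 2-cell SCNT embryo therefore spans egg activation and the first cleavage under a somatic nucleus.

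The deposited unit was FPKM (fragments per kilobase, relative to all fragments of a library), for 24616 Ensembl gene identifiers. FPKM is a relative measure, so fewer copies of a transcript and a larger amount of all others cannot be told apart. The files do not pair the identifiers with names, and 0 of them matched the available reference table, so genes appear by level and direction, at most 2 identifiers per direction are printed, and marker genes of the oocyte, of somatic donor cells or of cumulus cells were not analysed here. FPKM totals ran from 1153912 to 1386979 in the oocyte and from 1276123 to 1294594 in the SCNT libraries. Read totals are unknown. From the steps between low values, relative depth was 79.8% to 98.3% of the deepest library in oocytes and 94.6% to 100% in SCNT embryos, an approximate estimate, with MII replicate 1 the lowest.

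The SCNT embryos stood well apart from the oocytes. The 8810 genes that reached 1 FPKM in 3 or more of the 6 libraries were used. Their first principal component, with 74.4% of the variance, placed the oocytes at -45.4, -49.0 and -31.2 and the SCNT libraries at 35.8, 49.6 and 40.2. The second component held 10.001% and set MII replicate 2, at -28.5, apart from the other oocyte libraries at 19.9 and 10.1. On log2(FPKM + 1), the correlation across genes, which are not independent replicates, was 0.977 to 0.984 between oocyte libraries, 0.983 to 0.989 between SCNT libraries and 0.900 to 0.948 between an oocyte and an SCNT library.

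Close to 1 tested gene in 2 differed between SCNT embryos and oocytes, and genes higher in the embryos outnumbered those lower. With limma on log2(FPKM + 1), 4215 of 8810 genes passed an adjusted p of 0.05 (47.8%). Of these, 2723 were higher (30.9% of those tested) and 1492 lower (16.9%) in SCNT embryos. The share of higher genes among the calls was 64.6%. With quantile normalization, which gives every library the same distribution of values, it was 44.9% of 4669 calls, 2098 higher and 2571 lower, so the balance of directions depended on the scaling. The median fitted change of all tested genes was 0.14 on the log2 scale as deposited and -0.09 with quantile normalization, a shift of -0.23. A stricter filter of 5 FPKM gave 0.03, a pseudocount of 5 gave 0.08, and testing all detected genes gave 0.09. In 5297 genes (60.1%) the 3 SCNT and 3 oocyte values did not overlap, 3261 with the embryos above (37%) and 2036 with the embryos below (23.1%).

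Most changes were moderate, and large ones were more often upward. Higher genes had a median change of 1.04 and lower genes one of -0.80. A change of at least 1 on the log2 scale was reached by 1440 higher and 436 lower genes, of at least 2 by 256 and 49, of at least 3 by 36 and 7, and of at least 4 by 6 and 2. The smallest change that passed the test was 0.34, and the median standard error was 0.20. Of the 36 genes that rose by at least 3, 6 were listed at 0 in at least 1 library, and so were 2 of the 7 that fell by as much. A value of 0 may be a failed estimate. Within the 3 oocyte libraries, 24 genes were above 20 FPKM in one library and listed at 0 in another, and 13 genes were so within the 3 SCNT libraries.

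**Figure D1:**
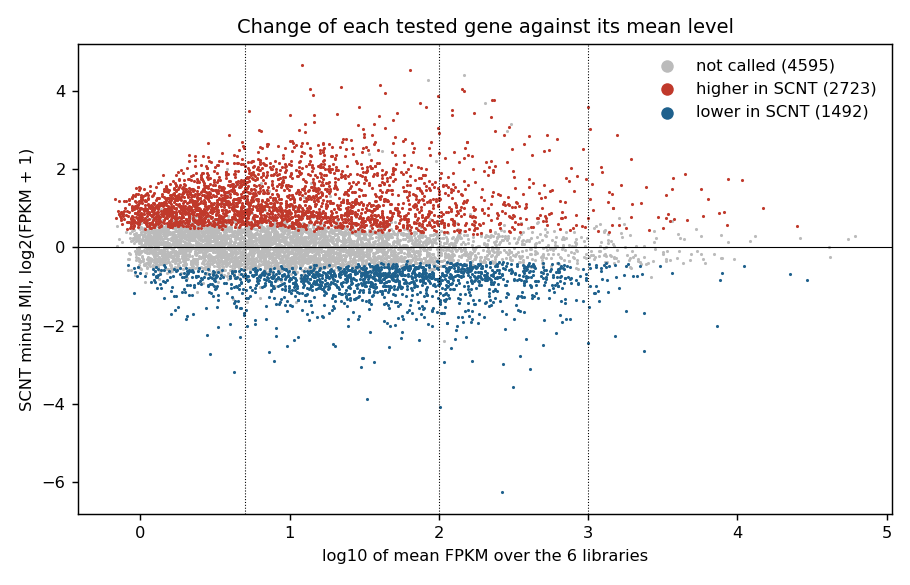
Each point is 1 of the 8810 tested genes, with the log10 of its mean FPKM over the 6 libraries on the x axis and its SCNT minus MII change in log2(FPKM + 1) on the y axis; red and blue are genes past an adjusted p of 0.05, grey the 4595 others, and dotted lines mark 5, 100 and 1000 FPKM. The 2723 higher genes spread widely at the lower levels, and the lower genes are few there.

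As deposited, the balance of rises and falls differed with the level of the gene. The genes were split by their mean FPKM over the 6 libraries. Under 5 FPKM, 1109 of 3015 genes were higher and 170 lower in SCNT embryos, so 86.7% of the calls were upward. This balance rests in part on the filter. Over all classes, 387 higher genes were below 1 FPKM in every oocyte library and were tested only through their SCNT values. In the other direction, 36 lower genes were below 1 FPKM in every SCNT library. The class balance without such genes was not tested. From 5 to 100 FPKM, 1329 of 4527 genes were higher and 851 lower (61.0% of calls upward). From 100 to 1000 FPKM the balance turned, with 239 of 1079 genes higher and 429 lower (35.8% upward). At 1000 FPKM or more, 46 of 189 genes were higher and 42 lower.

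These class balances kept their side for FPKM rescaled to a common total, except at 1000 FPKM or more, where 54 genes were higher and 58 lower, and they kept it with median-ratio scaling (41 higher and 25 lower in that class). With quantile normalization more genes were lower than higher in each class, at 611 higher and 719 lower under 5 FPKM, 1151 and 1424 from 5 to 100 FPKM, 282 and 366 from 100 to 1000 FPKM, and 54 and 62 above. The excess of downward calls from 100 to 1000 FPKM was thus present under each scaling, and the excess of upward calls below 100 FPKM was not. With quantile normalization, however, 43.5% of the calls from 100 to 1000 FPKM were upward, close to the 44.9% over all genes. Under that scaling the downward excess was therefore not particular to this class.

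**Figure D2:**
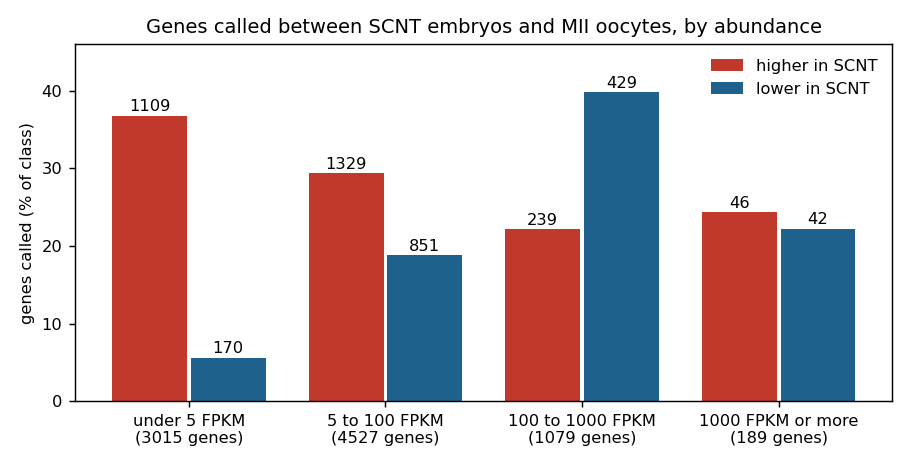
Bars give the share of genes in each abundance class (x axis) that passed the test, in percent of the class (y axis), red for higher and blue for lower in SCNT embryos, with the number of genes above each bar. Upward calls lead under 5 FPKM (1109 against 170) and downward calls from 100 to 1000 FPKM (429 against 239). The calls under 5 FPKM include genes tested only through their SCNT values.

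The median of each class was also taken library by library. Under 5 FPKM the class median of log2(FPKM + 1) was 1.30, 1.52 and 1.46 in the oocytes and 1.67, 1.94 and 1.83 in the SCNT embryos, which did not overlap. The difference was 0.39 (pooled SD 0.126, n = 3, two-sided exact permutation p = 0.1, adjusted p = 0.2 over the 4 classes), and 0.1 is the smallest p that 3 against 3 libraries can give. A pseudocount of 5 gave 0.17 for this class, testing all detected genes 0.25 and a filter of 5 FPKM 0.88. The class includes genes that were tested only because of their SCNT values. From 100 to 1000 FPKM the medians were 7.81, 7.79 and 7.78 in oocytes and 7.61, 7.66 and 7.66 in SCNT embryos, a difference of -0.15 (pooled SD 0.0246, n = 3, exact permutation p = 0.1, adjusted p = 0.2) without overlap. In the other classes the groups overlapped. The difference was 0.17 from 5 to 100 FPKM (pooled SD 0.14, n = 3, exact permutation p = 0.2), with 0.10 without MII replicate 1 and 0.26 without MII replicate 2. It was -0.04 at 1000 FPKM or more (pooled SD 0.149, n = 3, exact permutation p = 0.7), where it was 0.05 without MII replicate 1 and -0.16 without MII replicate 2. Over all tested genes the library medians were 3.20, 3.51 and 3.34 in oocytes and 3.49, 3.68 and 3.63 in SCNT embryos, with MII replicate 2 above SCNT replicate 1 (difference 0.25, pooled SD 0.129, n = 3, exact permutation p = 0.2). With quantile normalization the class differences were -0.02 under 5 FPKM, -0.0012 from 5 to 100 FPKM and -0.0080 from 100 to 1000 FPKM.

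On the same genes, the IVF libraries lay further from the oocytes than the SCNT libraries in the lower classes. The filter and the classes came from the SCNT and oocyte libraries alone, which by itself can set the IVF medians apart. The part of this choice was not tested, and no other scaling was tried for the IVF medians. Under 5 FPKM the IVF medians were 2.03, 1.99 and 2.11, all above the SCNT medians, and SCNT minus IVF was -0.23 (pooled SD 0.105, n = 3, exact permutation p = 0.1, adjusted p = 0.133 over the 4 classes). From 5 to 100 FPKM it was -0.29 (pooled SD 0.0803, n = 3, exact permutation p = 0.1), again without overlap. At 1000 FPKM or more SCNT lay above IVF by 0.28 (pooled SD 0.0154, n = 3, exact permutation p = 0.1). There too the IVF mean of 10.59 was further from the oocyte mean of 10.91 than the SCNT mean of 10.87. From 100 to 1000 FPKM the groups overlapped, with a difference of -0.05 (exact permutation p = 0.2).

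**Figure D3:**
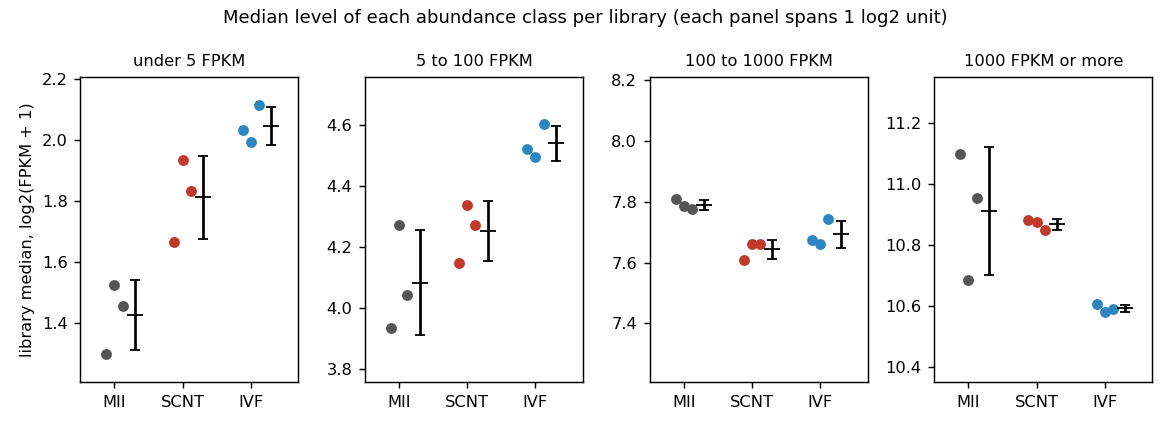
Each panel is 1 abundance class, and each point is the median log2(FPKM + 1) of that class in 1 library (y axis, each panel spanning 1 log2 unit), with the group mean ± SD (n = 3) beside the points. SCNT libraries lie above all oocyte libraries under 5 FPKM and below them from 100 to 1000 FPKM, and MII replicates 1 and 2 lie far apart at 1000 FPKM or more.

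Among genes with no library listed at 0, the largest rise was that of ENSBTAG00000031758. It was at 14.7, 0.968 and 3.85 FPKM in MII replicates 1, 2 and 3 and at 102, 128 and 136 FPKM in the SCNT replicates. Every embryo library lay far above every oocyte library, and the oocyte values differed widely among themselves. The log2 change was 4.52 (SE 0.587, adjusted p = 0.000322, limma), or 4.38 once the median change of the table was subtracted. The IVF replicates were at 72.6, 80.7 and 35.6 FPKM, each below the lowest SCNT library, and SCNT minus IVF did not pass the test (log2 difference 1.02, SE 0.581, adjusted p = 0.243, limma on all 9 libraries).

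The next, ENSBTAG00000031760, had 7.63, 1.94 and 2.00 FPKM in the oocyte libraries and 57.9, 96.9 and 73.8 FPKM in the SCNT embryos. Here too MII replicate 1 was the highest oocyte library, and the groups did not overlap. The log2 change was 4.16 (SE 0.39, adjusted p = 6.76e-05, limma). The IVF replicates were at 31.4, 60.8 and 38.2 FPKM, overlapping the SCNT values (log2 difference 0.82, SE 0.39, adjusted p = 0.174, limma). Both named rising genes have identifiers numbered from 31700 to 31799, a run that held 9 of the 36 rises of at least 3. Whether the 2 genes share reads was not tested.

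The largest fall with no library listed at 0 was that of ENSBTAG00000014772. Its oocyte values were 165, 237 and 174 FPKM, and those of the SCNT embryos 13.7, 8.72 and 9.20 FPKM. The mean fell 18.2-fold, the transcript stayed above 8 FPKM in each embryo library, and the groups were far apart. The log2 change was -4.07 (SE 0.208, adjusted p = 5.34e-06, limma). The IVF replicates, at 9.22, 23.7 and 13.1 FPKM, overlapped the SCNT values (SCNT minus IVF -0.43, SE 0.291, adjusted p = 0.321, limma).

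ENSBTAG00000001415 went from 53.7, 75.2 and 58.8 FPKM in the oocytes to 3.36, 2.50 and 4.28 FPKM in the SCNT embryos, which is -3.87 on the log2 scale (SE 0.21, adjusted p = 6.96e-06, limma). The IVF replicates were at 4.45, 6.76 and 4.82 FPKM, each above the highest SCNT library, and the difference did not pass the test (SCNT minus IVF -0.54, SE 0.208, adjusted p = 0.117, limma). All 4 genes passed in each of 16 alternative settings. The changes ran from 3.64 to 5.30 for ENSBTAG00000031758, from 3.23 to 4.67 for ENSBTAG00000031760, from -4.26 to -3.66 for ENSBTAG00000014772 and from -4.19 to -3.004 for ENSBTAG00000001415.

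**Figure D4:**
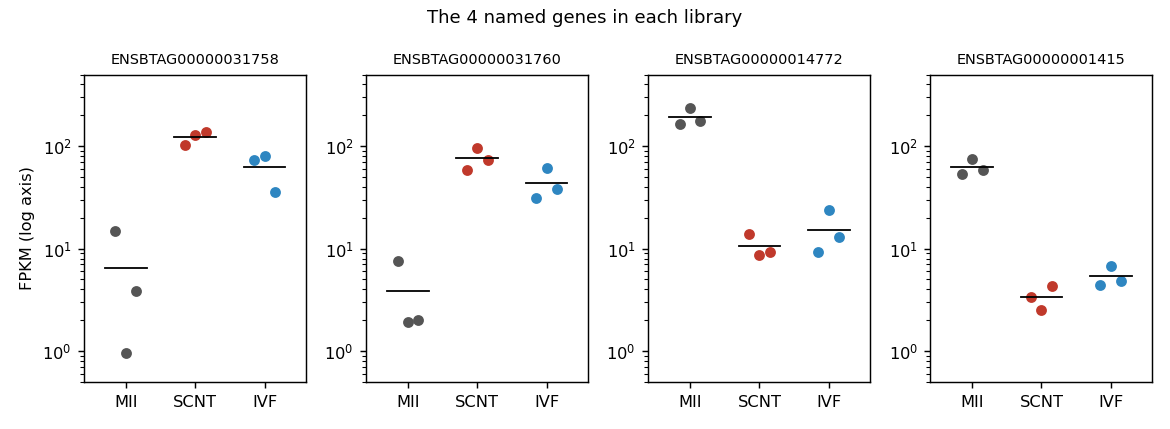
FPKM on a log axis (y) of the 4 named genes in each library, by group (x), with the group mean as a line (n = 3). The 2 rising genes reach 57.9 FPKM or more in each SCNT library and stay at or under 14.7 FPKM in the oocytes. The 2 falling genes drop to 13.7 FPKM or less in each SCNT library.

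Most called genes were at 1 FPKM or more in every oocyte library, which the filter of 1 FPKM favours. Of the 2723 higher genes, 1934 (71.0%) were at 1 FPKM or more in every oocyte library, and 387 were below 1 FPKM in all of them. Among the 4595 genes not called, the share in every oocyte library was larger, at 4090 (89.0%). The higher genes had a median level of 3.95 FPKM in oocytes and 11.0 FPKM in SCNT embryos. The lower genes were more abundant, with a median of 55.9 FPKM in oocytes and 29.5 FPKM in SCNT embryos. Few of them left the detected range. Of the 1492 lower genes, 1414 (94.8%) stayed at 1 FPKM or more in every SCNT library and 36 were below it in all. The share was similar among genes not called, 4241 of 4595 (92.3%), so it was not particular to the lower genes. Even among the 49 genes that fell by at least 2, 40 stayed at 1 FPKM or more in every SCNT library, with a median of 17.8 FPKM against 92.8 FPKM in oocytes. These levels come from the values that gave the calls and are a description. The 4595 genes not called had a median of 8.55 FPKM in oocytes and 8.44 FPKM in SCNT embryos.

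More genes reached the detection level in SCNT embryos. At 1 FPKM or more, the oocyte libraries had 7875, 8300 and 8209 genes and the SCNT libraries 8705, 9271 and 9010, a difference of 867 genes without overlap (pooled SD 255, n = 3, two-sided exact permutation p = 0.1, adjusted p = 0.3 over 3 library measures). The oocyte library with the fewest genes, MII replicate 1, was also the one with the lowest relative depth, and the SCNT libraries came from larger pools. The relative depth was 92.7% and 98.3% in MII replicates 2 and 3, and 97.9%, 94.6% and 100% in SCNT replicates 1, 2 and 3. Among these libraries the number of genes did not follow the order of depth. The part of depth and pool size in this difference was not tested. The number of genes listed at 0 was 12850, 12324 and 12151 in the oocytes and 11667, 11139 and 11364 in the SCNT embryos.

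Crossing of the 1 FPKM level was likewise mostly upward. Below 1 FPKM in every oocyte library and at 1 FPKM or more in every SCNT library were 406 genes, and 47 genes crossed the other way. Such genes pass the filter only through the group in which they are high, so they had to differ, and no test is given over them. Most crossings were small in absolute terms, with a median of 0.471 FPKM in oocytes and 1.97 FPKM in SCNT embryos for the upward set. In the IVF libraries, 335 of the 406 were at 1 FPKM or more in all 3, and 8 in none. Of the 47 downward genes, 9 were at 1 FPKM or more in all 3 IVF libraries and 4 in none.

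Few genes appeared or vanished outright. Only 8 genes were listed at 0 in all 3 oocyte libraries and at 1 FPKM or more in all 3 SCNT libraries, and 2 genes showed the opposite. In the highest of the 8, the SCNT libraries held 23.0, 25.8 and 23.6 FPKM, and all IVF libraries were listed at 0. The second was at 14.4, 7.32 and 10.2 FPKM in SCNT embryos and at 1.44, 5.63 and 3.25 FPKM in IVF embryos, the only one of the 8 to reach 1 FPKM in every IVF library. The third varied most, at 1.76, 9.89 and 12.01 FPKM. The other 5 had means between 1.36 and 5.72 FPKM in SCNT embryos. Of the 2 genes that were lost, one had been at 10.5, 9.64 and 5.24 FPKM in the oocytes and the other at 7.16, 3.36 and 7.18 FPKM. Both were detected in some IVF libraries, the first at 4.71 FPKM in replicate 2 and the second at 10.4 and 8.22 FPKM in replicates 1 and 3. Leaving out 1 library can only keep or raise these counts, since fewer libraries have to meet the rule. The counts then differed with the library left out, from 11 gained genes (without SCNT replicate 2) to 26 (without MII replicate 3), and from 2 to 5 lost genes.

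Some of the most abundant transcripts changed, while their combined share of the total did not move beyond the spread. The 10 genes with the highest mean, from 13216 to 61211 FPKM, took 26.2% ± 0.784 (SD, n = 3) of the FPKM total in oocytes and 26.3% ± 0.24 (SD, n = 3) in SCNT embryos, as the 10 highest of each library (exact permutation p = 1). Of these 10 by mean, 2 were higher, 2 lower and 6 not called, all within -0.84 to 1.01 on the log2 scale. The fifth by rank had 48085, 30097 and 35042 FPKM in the oocytes and 18234, 21814 and 22071 FPKM in SCNT embryos, without overlap between the groups (log2 change -0.84, SE 0.216, adjusted p = 0.0104, limma). The ninth had 12569, 7045 and 10574 FPKM in the oocytes and 19747, 20171 and 19239 FPKM in SCNT embryos, all above the oocyte values (log2 difference 1.01, SE 0.221, adjusted p = 0.00489, limma). Among the 50 most abundant genes, 15 were higher, 7 lower and 28 not called. Over all tested genes 30.9% were higher and 16.9% lower, so the abundant genes were called at about the common rate.

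By share of the FPKM total, the class of 100 to 1000 FPKM lost ground. It held 24.7%, 27.5% and 25.6% in the oocytes and 23.2%, 23.4% and 23.5% in the SCNT embryos, a difference of -2.52 percentage points without overlap (pooled SD 1.02, n = 3, exact permutation p = 0.1). Genes of 1000 FPKM or more held 65.5%, 59.5% and 64.9% in oocytes and 66.8%, 65.3% and 65.9% in SCNT embryos, which overlapped (difference 2.72 percentage points, pooled SD 2.41, n = 3, exact permutation p = 0.2).

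The SCNT libraries varied less among themselves than the oocyte libraries. The median SD of a gene over the 3 libraries was 0.24 in oocytes and 0.18 in SCNT embryos on the log2(FPKM + 1) scale, and it was larger in oocytes for 5479 of the 8810 genes (62.2%). At 1000 FPKM or more the SD was larger in oocytes for 73.0% of 189 genes, with medians of 0.22 and 0.15, and from 5 to 100 FPKM for 67.3% of 4527 genes, with medians of 0.26 and 0.17. Under 5 FPKM the medians were 0.25 and 0.21. The genes of a library can deviate together, so this is a description of these 6 libraries, and pools of 3 oocytes against pools of 6 embryos cannot be told apart from the groups.

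**Figure D5:**
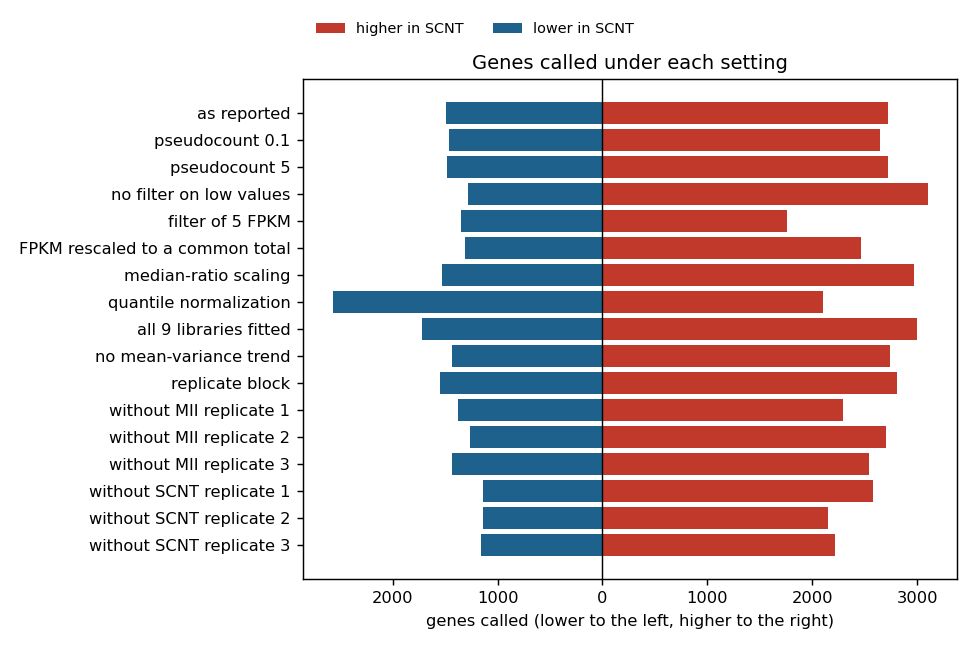
Number of genes called (x axis, lower to the left in blue, higher to the right in red) under each setting (y axis), the first being the fit as reported. Higher genes outnumber lower genes in every setting except quantile normalization, with 2098 higher and 2571 lower.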

How the data were processed

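The authors deposited 1 table of FPKM values, 24616 Ensembl identifiers by 9 libraries. The unit comes from the name of the deposited table, and no value speaks against it. cDNA synthesis used SuperScript III, per the labels' protocols, and the product was poly(A)-tailed, amplified with Ex Taq HS, fragmented and made into NEBNext Ultra DNA libraries. Strand marking is not described, so overlapping antisense genes and near-identical copies are uncertain. The submitters' processing notes name build UMD3.1 and the tools RSEM 1.2.12, StringTie 1.0.4, HISAT 0.1.6, Bowtie2 2.2.5 and bcl2fastq 2.16. The sources used here do not say which tool gave the FPKM.

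Libraries were grouped by title. Genes with at least 1 FPKM in 3 or more of the 6 libraries were tested on log2(FPKM + 1), which understates the change of low genes, with limma 3.58.1 (R 4.3.3, mean-variance trend) and Benjamini-Hochberg adjustment over 8810 genes. The fit was tested on simulated data for 8810 genes. It recovered 66% of 100 changes of 1 on the log2 scale and 100% of 100 changes of 2, with 0 in the wrong direction. It also called 17 unchanged genes. Two-sided exact permutation tests compared the library measures. Depth steps used values under 0.5 FPKM and the most common ratio to SCNT replicate 3 (12.1% to 23.7% of genes within 0.03, log2). Named genes are the 2 largest changes per direction among called genes without overlap, with no library at 0 and with 5 FPKM or more as the mean of the higher group. Gene lists prepared by symbol could not be applied, as 0 identifiers matched the reference table (assembly ARS-UCD2.0). The comparison, its rule and the class borders were chosen with earlier results of these data known. Alternatives were pseudocounts of 0.1 and 5, other filters and scalings, all 9 libraries in the fit, no trend, a replicate block, and leaving out each library, in each case with the tested genes kept unless the filter itself was changed. Figures used matplotlib 3.10.9.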

Additional observations from a re-analysis of the deposited data

Results flagged for a closer look

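In 2 library measures all SCNT libraries lay above the oocyte mean and all IVF libraries below it. The share of the FPKM total held by genes of 1000 FPKM or more was 2.72 percentage points above the oocyte mean in SCNT embryos and -1.31 from it in IVF embryos. These genes were chosen by their SCNT and oocyte values and not by their IVF values, which favours a larger share in SCNT than in IVF embryos. IVF replicate 2, at 63.27%, was only just below the oocyte mean of 63.28%. The FPKM total was 15613 above the oocyte mean in SCNT embryos and -68197 from it in IVF embryos. Both differences share the same oocyte libraries, whose own values spanned the SCNT and IVF libraries in the case of the total, and the difference between the embryos relative to oocytes was not tested beyond SCNT minus IVF (4.04 percentage points and 83810, each with an exact permutation p of 0.1, which is as low as this design goes).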

How the results depend on the processing

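The number of genes called stayed between 3103 and 4713 in settings with all libraries, and 3287 (without SCNT replicate 2) to 3973 (without MII replicate 3) with 1 library left out, 2147 to 2701 higher and 1140 to 1430 lower. The exceptions past 1.5 times were 1755 higher genes with a filter of 5 FPKM, which tests fewer genes (5932), and 2571 lower genes with quantile normalization. Of the 4215 genes called as reported, 3460 were also called with quantile normalization, 3728 for FPKM rescaled to a common total and 4152 with median-ratio scaling, all in the same direction. With quantile normalization the median change of all genes turned to -0.0887, that of the library medians to 0, those of the classes under 5 FPKM and of 5 to 100 FPKM to -0.0206 and -0.0012, and that of 100 to 1000 FPKM shrank to -0.0080. This method sets the library distributions equal. The class under 5 FPKM was at 0.55 with a pseudocount of 0.1, 0.17 with 5, 0.25 without a filter (9176 genes) and 0.88 with a filter of 5 FPKM (181 genes). The class of 100 to 1000 FPKM was at -0.11 with median-ratio scaling, and the library medians differed by 0.40 without a filter. The causes of these last 2 were not tested.

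With 1 library left out, the median change of all genes ran from 0.09 to 0.20, that of the library medians from 0.18 to 0.33, and the classes from lowest to highest from 0.32 to 0.46, 0.10 to 0.26, -0.16 to -0.13 and -0.16 (without MII replicate 2) to 0.05 (without MII replicate 1). The difference in genes at 1 FPKM ran from 729.5 to 1013, and that in the share of the top 10 genes from -0.21 (without MII replicate 2) to 0.52 (without MII replicate 1) percentage points, against 0.07 with all. Counted from 5 FPKM the difference was 519 genes. The share of the 50 most abundant genes differed by 2.06 points (exact permutation p = 0.3, n = 3). With presence counted from 5 FPKM, 2 genes were gained and 1 was lost. The 8 gained genes became 11 to 26 and the 2 lost genes 2 to 5 with 1 library left out, since fewer libraries have to meet the rule.

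Whether shared replicate numbers pair the libraries is not known here. Deviations of same-numbered MII and SCNT libraries correlated at 0.0035, -0.06 and -0.02, which with 3 libraries per group cannot exclude a pairing. With the replicate block 4356 genes were called, 2807 higher and 1549 lower. Library medians, detection counts and shares do not use the block, the trend or the IVF libraries. Low depth limits values under 1 FPKM most, and without read totals no counting interval can be given.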

Other observations

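The largest rises were not spread evenly over the identifier numbers of the table, a pattern chosen after the values were seen. Of the 36 genes that rose by at least 3 on the log2 scale, 9 had identifiers numbered from 31700 to 31799. Among runs of this width, 3 held 2 or more of the 36 rises, together 13, and only the run with the most is described here. In the run from 31700 to 31799, 35 genes were tested, of which 23 were higher and 2 lower. Over all 8810 tested genes, 2723 were higher (30.9%) and 1492 lower (16.9%). Since the run was picked for those 9 rises, its count restates the choice in part. Without them 14 of the other 26 genes were higher, given as a description. Identifier numbers carry no stated meaning in the files, and neither the function nor the position of these genes is known here.

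Among the 630 pairs of these 36 genes, 1 pair kept its ratio within 1% over the SCNT libraries, at 1.04, 1.03 and 1.03. In the oocyte libraries the ratio of the same pair was 1.15, 0.949 and 1.00. Whether these genes share reads was not tested.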
